A study of Mus musculus with 8 samples.

Results

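Foxa1, Gata3, Cited1, Elf5 and Ehf, 5 genes for transcription regulators of the luminal epithelium, were followed in mouse mammary gland after an injection of 17β-estradiol (E2). They are 5 of the 18193 genes with a value, and their 9 probe sets are 9 of the 34945 probe sets annotated to a single symbol. The members were chosen by values measured on these arrays, the order and depth of their falls after E2 and the return to the vehicle level. Their levels are therefore a description with no test, and every probe set annotated to the 5 symbols was kept, whatever its level.

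Foxa1, Gata3 and Cited1 fell and came back at different times. Foxa1 was 6.19-fold lower than the vehicle mean at 3 h, Gata3 was 1.82-fold lower at 3 h, and Cited1 was 4.05-fold lower at 6 h. At 18 h and 24 h all 3 genes lay within 0.12 log2 units of the vehicle mean. Elf5 and Ehf stayed under a 1.5-fold difference from at least one vehicle array at every time. None of these differences has a replicate at its own time.

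The tissue was inguinal mammary gland of 12- to 13-week-old virgin mice, all gonadectomized (GDX), controls included, so that each group lacked its gonadal source of estrogen. Each of 6 groups received E2 under the skin and was killed after 1 h, 3 h, 6 h, 12 h, 18 h or 24 h, and is represented by 1 array; 2 control groups received the vehicle and are represented by 1 array each, both labelled 24 h. The values are Affymetrix array intensities on a linear scale, as the authors deposited them. The sources used here do not say whether a group's RNA came from 1 mouse or a pool of mice, and the labels write the dose with conflicting units, so none is stated. Because both controls are labelled 24 h, the hour of collection and the injection itself cannot be told apart from E2 in the arrays at 1 to 18 h. The samples' free-text descriptions name 24 h for every array, and the times here are those of the sample titles.

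FOXA1 is a forkhead pioneer factor: it makes closed chromatin accessible to the estrogen receptor and is needed for ductal growth of the mammary gland. GATA3 is a zinc finger factor that maintains the luminal state, and CITED1 is a coactivator without a DNA-binding domain that binds CBP/p300 and the estrogen receptor. These 3 are best known from the hormone-sensing luminal cells. ELF5 and EHF are ETS family factors of epithelia. ELF5 directs the alveolar, milk-producing fate in luminal progenitors, which mostly lack the estrogen receptor, and EHF is found in many glandular epithelia.

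The bases just upstream of Foxa1, Gata3 and Cited1 are printed because these are the 3 genes whose messenger RNA moved together in part and apart in part. The sequences are RefSeq's, build GRCm38.p6, and each is the 250 bases before an annotated transcript start, read 5′ to 3′ on the gene's strand. Capitals mark the forkhead motif TGTTTAC and the estrogen receptor core motif GGTCA on either strand, so a match on the opposite strand reads GTAAACA or TGACC.
Foxa1: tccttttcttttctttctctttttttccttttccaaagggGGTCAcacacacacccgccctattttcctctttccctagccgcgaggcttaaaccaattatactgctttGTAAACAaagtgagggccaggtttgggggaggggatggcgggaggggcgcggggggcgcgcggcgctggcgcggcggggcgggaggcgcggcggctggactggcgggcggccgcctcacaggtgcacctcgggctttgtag
Gata3: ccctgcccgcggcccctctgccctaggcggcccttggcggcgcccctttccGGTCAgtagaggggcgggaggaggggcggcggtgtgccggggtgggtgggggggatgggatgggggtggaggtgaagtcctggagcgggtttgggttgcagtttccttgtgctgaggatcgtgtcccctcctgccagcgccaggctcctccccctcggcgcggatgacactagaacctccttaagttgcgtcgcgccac
Cited1: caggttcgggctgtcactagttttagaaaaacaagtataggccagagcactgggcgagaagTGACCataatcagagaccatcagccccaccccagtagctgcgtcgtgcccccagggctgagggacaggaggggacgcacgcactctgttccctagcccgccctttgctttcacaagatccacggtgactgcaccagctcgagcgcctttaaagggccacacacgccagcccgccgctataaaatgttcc
The Foxa1 window is chr12:57546112-57546361 on the minus strand, the Gata3 window is chr2:9878601-9878850 on the minus strand, and the Cited1 window is chrX:102252182-102252431 on the minus strand, the first of its 3 windows. The Foxa1 and Gata3 windows lie inside the span RefSeq gives the gene, chr12:57540628-57548029 for Foxa1 and chr2:9857078-9887953 for Gata3. The Cited1 window adjoins the end of the gene at chrX:102247378-102252181. Elf5 is at chr2:103412098-103450989 and Ehf at chr2:103263431-103303275.

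All 3 windows were richer in G and C than most. The G and C content was 62.0% for Foxa1, 70.0% for Gata3 and 58.0% for Cited1, against a median of 52.4% over 32851 such windows of all genes. They held 21, 19 and 13 CpG pairs in the same order, against a median of 6.

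The Foxa1 window held the forkhead motif on its opposite strand, 141 to 135 bases before the start, a motif present in 3.17% of all windows on either strand. GGTCA stood 210 to 206 bases before the Foxa1 start and 199 to 195 bases before the Gata3 start, and its reverse form stood 189 to 185 bases before the Cited1 start. The members had 7 windows, which came from 4 genes, 3 of them from Cited1, and no window was available for Ehf. Of the 7 windows, 4 held GGTCA, as did 35.2% of all windows. None of the 7 held the variant forkhead motif TGTTTGC (4.3% of all windows), the GATA motifs AGATAA (9.99%) and TGATAA (7.94%), or the full estrogen response element, GGTCA and TGACC separated by 3 bases (0.0639%). GGTCA is also the first part of that element. Such a match is a description of letters and not a site of binding, and a missing match says only that the letters are not in the window.

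The arrays were alike in overall level, with medians of 173.9 to 180.5. Of the 18193 genes, 10916 passed a filter on low levels, the 5 members among them, and over these the vehicle arrays differed with an SD of 0.13 log2 units. Only 18 of the 10916 genes differed at least 1.5-fold between the vehicle arrays and 0 differed 2-fold. A gene was counted as changed at a time where its array was at least 1.5-fold (0.585 log2 units) above both vehicle arrays or below both, a rule of size and not a test.

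Markers of other cell types also moved between arrays. The mean of 11 skeletal muscle genes was 0.23 to 1.24 log2 units above the vehicle mean at every E2 time, and it differed by 0.36 between the vehicle arrays. The mean of 6 B cell genes was 0.48 and 0.47 log2 units below the vehicle mean at 18 h and 24 h. Epcam, an epithelial adhesion protein, was taken as a sign of luminal epithelium and stayed between 10.66 and 10.87 log2 units by its brightest probe set. The name of that set ends in x_at, the ending of sets that can share probes with other transcripts. The other Epcam set, without that ending, was 0.28 and 0.45 log2 units below its vehicle mean at 3 h and 6 h. A steady level of epithelium therefore rests on the brightest set alone. In bulk tissue, fewer cells of a type and less RNA per cell cannot be told apart.

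Foxa1 had the deepest fall of the 5 genes. Its intensity (probe set 1418496_at) was 1368.2 and 1444.4 on the vehicle arrays, 725.9 after 1 h, 227.1 after 3 h, 755.5 after 6 h, 1170.3 after 12 h, 1471.9 after 18 h and 1388.3 after 24 h. The arrays at 1 h to 12 h all lay below both vehicle arrays, and those at 18 h and 24 h lay at their level. The difference from the vehicle mean was -0.95 log2 units after 1 h, -2.63 after 3 h, -0.90 after 6 h and -0.26 after 12 h, where the vehicle arrays themselves had an SD of 0.055 (n = 2).

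The fall of Foxa1 was under way at 1 h, where it was 1.94-fold lower and had covered 36.3% of its later log2 depth. The largest step down was between 1 h and 3 h, of -1.68 log2 units, and the step back from 3 h to 6 h was of like size, 1.73. By 6 h 65.9% of the fall was recovered, and by 12 h 89.9%. The levels at 1 h and 6 h, before and after the low point, differed by 0.06 log2 units, less than the 0.08 between the vehicle arrays. The 12 h array was still 0.23 and 0.30 log2 units below the vehicle arrays, more than their distance from each other.

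Foxa1 ranked first from the lowest among the 10916 genes at both 1 h and 3 h. It ranked 7th at 6 h and 183rd at 12 h. The number of genes counted as lower was small at these times, 3 genes or 0.0275% after 1 h, 25 or 0.229% after 3 h, 17 or 0.156% after 6 h and 7 or 0.0641% after 12 h. Since the members were chosen on these differences, nothing is read from their number among them.

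Gata3 fell earliest in relation to its own depth, and least. Its intensity (1448886_at) was 299.3 and 316.3 on the vehicle arrays, 188.1 after 1 h, 169.1 after 3 h, 261.1 after 6 h, 342.5 after 12 h, 314.4 after 18 h and 285.1 after 24 h. Only the 1 h and 3 h arrays stood far below the vehicle arrays, and the 12 h array was the highest of the 8. At 1 h Gata3 was 1.64-fold lower, -0.71 log2 units, which was already 82.3% of its deepest fall. At 3 h it was 1.82-fold lower, -0.86 log2 units, against a vehicle SD of 0.057 (n = 2).

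Gata3 was back close to the vehicle level by 6 h, with 72.6% of its fall recovered and a difference of -0.24 log2 units. The 6 h array remained 0.20 and 0.28 log2 units below the vehicle arrays, which were 0.08 apart. From 12 h on the difference was 0.15, 0.03 and -0.11 log2 units at 12, 18 and 24 h. Gata3 ranked 3rd from the lowest at 1 h, 11th at 3 h and 384th at 6 h.

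At 1 h, Foxa1 and Gata3 were 2 of the 3 genes counted as lower, and Mup10 was the other, at -0.75 log2 units. Gata3 at 1 h was also the change nearest to the limit among those of the members that passed it, 0.67 log2 units from the closer vehicle array. The nearest value that did not pass was Elf5 at 12 h, 0.37 from the closer vehicle array and in the upward direction. No other member value lay between 0.37 and 0.67.

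Cited1 followed later and stayed low longest. Its intensity (1449031_at) was 595.1 and 528.7 on the vehicle arrays, 493.2 after 1 h, 295.1 after 3 h, 138.5 after 6 h, 243.2 after 12 h, 567.5 after 18 h and 610.5 after 24 h. The arrays at 3, 6 and 12 h lay far below the vehicle arrays, the 1 h array lay just below them, and the 18 h and 24 h arrays lay at their level. The difference from the vehicle mean was -0.19 log2 units after 1 h, -0.93 after 3 h, -2.02 after 6 h and -1.21 after 12 h, with a vehicle SD of 0.121 (n = 2).

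At 3 h, when Foxa1 and Gata3 were at their lowest, Cited1 had reached 45.9% of its fall. Between 3 h and 6 h Cited1 fell by a further 1.09 log2 units while Foxa1 rose by 1.73 and Gata3 by 0.63. At 12 h Cited1 was 2.31-fold lower and only 40.3% of its fall was recovered. The larger part of the return came between 12 h and 18 h, a step of 1.22 log2 units after 0.81 between 6 h and 12 h. The return was 100.8% complete at 18 h. Cited1 ranked 183rd from the lowest after 1 h, 10th after 3 h, first after 6 h and 3rd after 12 h.

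**Figure D1:**
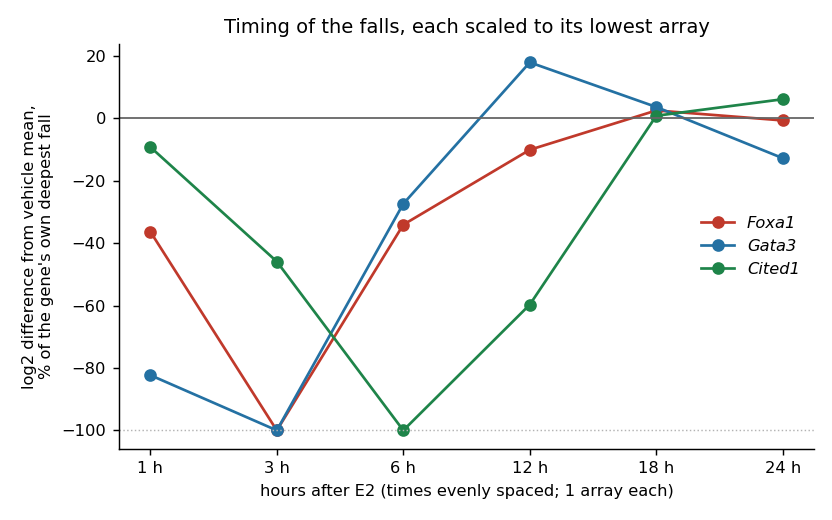
Log2 difference from the vehicle mean as a percentage of each gene's own deepest fall (vertical axis) against hours after E2 (horizontal axis, evenly spaced; 1 array each) for Foxa1, Gata3 and Cited1. At 1 h the share of the fall is 82.3% for Gata3, 36.3% for Foxa1 and 9.2% for Cited1, and at 12 h it is 59.7% for Cited1 and 10.1% for Foxa1.

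The plot of timing puts the 3 genes in the order Gata3, Foxa1, Cited1 by the share of the fall reached at 1 h. At 6 h the remaining share of the fall was 27.4% for Gata3 and 34.1% for Foxa1, and Cited1 was at its low point. These shares rest on 1 array a time, and the times between the arrays were not sampled, so a lower point between them is not measured. The low points of Gata3, 169.1, and Cited1, 138.5, lay under the lowest array median intensity, 173.9. The effect of background on these depths was not tested.

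Levels set against a mean of luminal structural genes on the same array kept the falls but changed the return. Relative to the mean of 10 pan-luminal structural genes (keratins, claudins and other junction and epithelial proteins), Foxa1 was at -2.45 log2 units at 3 h, Gata3 at -0.74 at 1 h and -0.69 at 3 h, and Cited1 at -1.84 at 6 h. That mean was itself 0.18 log2 units below the vehicle mean at 3 h and 6 h and 0.38, 0.28 and 0.24 above it at 12, 18 and 24 h. The genes of that mean did not move alike. At 12 h, 7 of the 10 lay above both vehicle arrays and 1 below both. Krt8 and Krt18, keratins of luminal cells, were 1.37 and 0.81 log2 units higher at 12 h. By its brightest probe set, Epcam was at 0.0, 0.10 and 0.15 at 12, 18 and 24 h, and by its other set at 0.26, 0.11 and -0.03. Cdh1, also in the mean, was at -0.05, 0.09 and -0.02. Levels relative to Epcam or Cdh1 alone were not computed. Relative to the mean of the 10 genes, Foxa1 was at -0.72 at 6 h and still at -0.64 at 12 h, -0.22 at 18 h and -0.26 at 24 h. Gata3 was near the vehicle level at 6 h, at -0.06, and then lower, at -0.22, -0.25 and -0.35 at 12, 18 and 24 h. Cited1 was at -1.58, -0.27 and -0.12 at 12, 18 and 24 h.

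Epcam did not track the falls by its brightest probe set, with differences of 0.04, 0.09 and -0.02 log2 units at 1, 3 and 6 h. Its other probe set gave -0.02, -0.28 and -0.45 at these times. Cdh1, the E-cadherin gene, was lower at 6 h, by -0.85 log2 units. The part of luminal cell number in the falls was not tested.

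Elf5 showed no fall. Its brighter probe set (1419555_at) had intensities of 316.9 and 371.8 on the vehicle arrays, 425.5 after 1 h, 401.8 after 3 h, 333.2 after 6 h, 480.4 after 12 h, 387.5 after 18 h and 361.9 after 24 h. The 12 h array was the highest and 1.40-fold above the vehicle mean, 0.49 log2 units, but the vehicle arrays were 0.23 apart. No neighbouring pair in the order of the 8 arrays was farther apart than the vehicle arrays.

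The dimmer Elf5 probe set (1419556_at) had intensities of 150.5 and 161.0 on the vehicle arrays and of 149.9 to 188.0 after E2, again highest at 12 h, at 0.27 log2 units. Both sets gave like profiles, with r = 0.86 over the 8 arrays. At 12 h, the time of the highest Elf5 value, Btn1a1 (butyrophilin, a milk fat globule protein) was 0.99 log2 units higher by its brightest probe set and 0.47 and 0.10 by the others. The 12 tested genes of an alveolar and secretory list, Btn1a1 among them, had a median of 0.25 at 12 h, against 0.01 over all tested genes, with 1 of the 12 counted as higher, against 0.147% of all tested genes. The rise was not particular to that list: the 10 pan-luminal genes had a median of 0.37 at 12 h, with 2 counted as higher. Relative to the pan-luminal genes, Elf5 at 12 h was only 0.11 log2 units above the vehicle mean.

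Ehf had 4 probe sets, which followed more than one profile. The brightest (1447760_x_at) had intensities of 424.7 and 341.8 on the vehicle arrays, 393.0 after 1 h, 410.7 after 3 h, 431.7 after 6 h, 402.3 after 12 h, 471.9 after 18 h and 469.7 after 24 h. The vehicle arrays spanned 0.31 log2 units, as much as the largest difference after E2, 0.31 at 18 h. The name of this probe set ends in x_at, the ending Affymetrix gives to sets that can share probes with other transcripts.

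The 3 other Ehf sets were dim. Set 1451375_at lay between 66.7 and 87.2 over the 8 arrays, set 1419475_a_at between 57.2 and 74.2, and set 1419474_a_at between 31.4 and 35.2, where the lowest value of any probe set was 13.8. At 6 h the brightest set was 0.18 log2 units above the vehicle mean, while 1451375_at was at -0.16 and 1419475_a_at at -0.18. Set 1419474_a_at was at 0.11, on the side of the brightest set. Over the 8 arrays the brightest set had r = 0.90 with 1419474_a_at, 0.12 with 1451375_at and -0.24 with 1419475_a_at. The last pair, 1451375_at and 1419475_a_at, had r = 0.68 with each other.

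The brightest Ehf set and 1 dim set moved with muscle markers and against lymphocyte markers. For the brightest set, r over the 8 arrays was 0.68 with the mean of the skeletal muscle genes, -0.86 with that of the B cell genes and -0.87 with that of 7 T cell genes. For the dim set 1419474_a_at, r with these means was 0.88, -0.72 and -0.73. Both muscle and B cell means also differed between the vehicle arrays, by 0.36 and -0.32 log2 units. Only the 110 tested genes that spanned at least 1 log2 unit over the 8 arrays were searched for like profiles. Among these, the 5 most like the brightest set were Ldb3, Srl, Tnnt3, Mylpf and Myl1, genes of muscle fibres, with r of 0.723 to 0.762. Set 1451375_at had r = -0.17 with the muscle mean, 0.70 with the pan-luminal mean and -0.82 with the mean of macrophage genes. For set 1419475_a_at these were -0.29, 0.41 and -0.69. The part of muscle, lymphoid tissue or macrophages in the Ehf values was not tested.

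**Figure D2:**
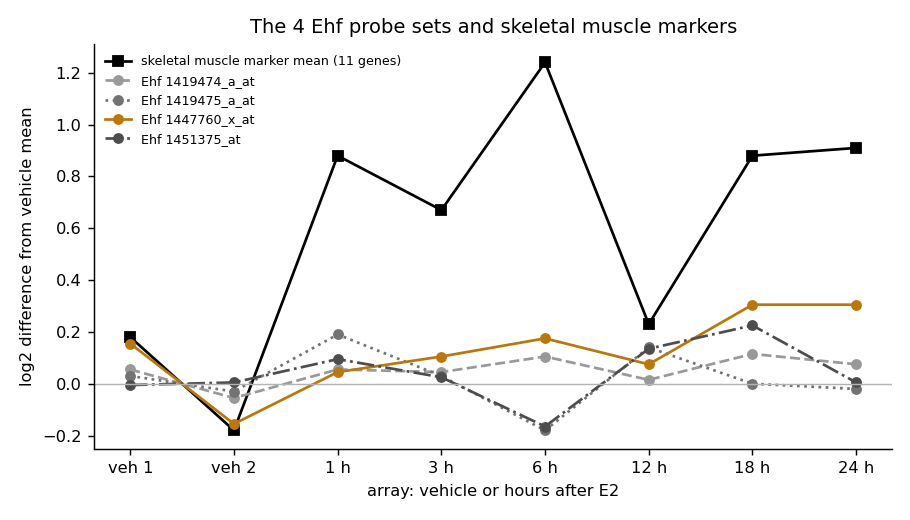
Log2 difference from the vehicle mean (vertical axis) of the 4 Ehf probe sets and of the mean of the skeletal muscle markers on the 2 vehicle arrays and from 1 h to 24 h after E2 (horizontal axis; 1 array each). The Ehf sets stay between -0.18 and 0.31 after E2, and at 6 h, where the muscle mean is at 1.24, the brightest set is above the vehicle mean and 2 dim sets are below it.

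The fall of Foxa1, Gata3 and Cited1 was set beside 3 lists of related genes, other regulators of the luminal lineage, relatives in the same gene families, and binding partners and coregulators. Of 77 listed genes 74 were measured and 60 passed the level filter. None of the 60 was counted as lower at any time, where the share over all tested genes was at most the 0.229% of 3 h and fell to 0.0183% at 18 h and 0.0275% at 24 h. Their lowest values were -0.38 at 1 h for Klf5, a Krüppel-like factor, -0.45 at 3 h for Trps1, a GATA-type repressor, and -0.35 at 6 h for Foxo3, a forkhead factor. The median of the 60 was 0.05, 0.02 and -0.00 log2 units at 1, 3 and 6 h, against 0.02, 0.01 and 0.01 over all tested genes.

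Gata2 and Cited2, relatives of members that passed the level filter, did not share the pattern of values. Gata2 stayed within 0.13 log2 units of its vehicle mean at every time. Cited2 lay between -0.43 and -0.24 at every time, but its vehicle arrays were 0.47 apart. Foxa2, Foxa3 and Cited4 were under the level filter, so Foxa1 had no FOXA relative to set beside it.

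The only listed regulators counted as higher were Stat5a and Ets2, both at 3 h. Stat5a, which carries the prolactin signal, was 0.74 log2 units higher, and its other probe set gave 0.83. Ets2, an ETS factor like Elf5 and Ehf, was 0.66 higher, while its other sets gave 0.11 and 0.05. Over all tested genes the share counted as higher was 0.293% after 1 h, 0.568% after 3 h, 0.586% after 6 h, 0.147% after 12 h, 0.211% after 18 h and 0.192% after 24 h. No member was counted as higher at any time.

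Tfap2b, an AP-2 factor of luminal cells and one of the listed regulators, was under the level filter and is named here after its values were seen. Its intensity was 131.7 and 134.0 on the vehicle arrays and 86.7 at 3 h, a difference of -0.62 log2 units. At 6 h it was at -0.54 and at 12 h at -0.47.

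Of 15 listed genes of hormone-sensing luminal cells 11 were measured and 7 passed the level filter, and of these 1 was counted as lower at any time and 2 as higher. Over all tested genes, 0.0183% to 0.229% were counted as lower at a single time and 0.147% to 0.586% as higher. Esr1, the gene of estrogen receptor alpha, was the lower one, at 6 h. Its intensity was 1551.0 and 1504.6 on the vehicle arrays, 1540.9 after 1 h, 1240.3 after 3 h, 769.7 after 6 h, 1153.9 after 12 h, 1256.5 after 18 h and 1205.7 after 24 h. The low point fell at the same array as that of Cited1, but Esr1 was still below both vehicle arrays at 24 h, by -0.34 log2 units. All 3 probe sets of Esr1 were lowest at 6 h, at -0.99, -1.59 and -0.39.

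Pgr, the progesterone receptor gene and a classical estrogen target, was higher. Its brightest probe set was 2.43 log2 units higher at 3 h, the low point of Foxa1, and 1.60 and 1.30 higher at 6 h and 12 h, while its dimmer sets gave 0.47 and 0.11 at 3 h. Prom1, a surface marker of hormone-sensing luminal cells, was 0.78 higher at 12 h and 0.65 at 18 h. Prlr and Areg, of the same list, were not analysed here.

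**Figure D3:**
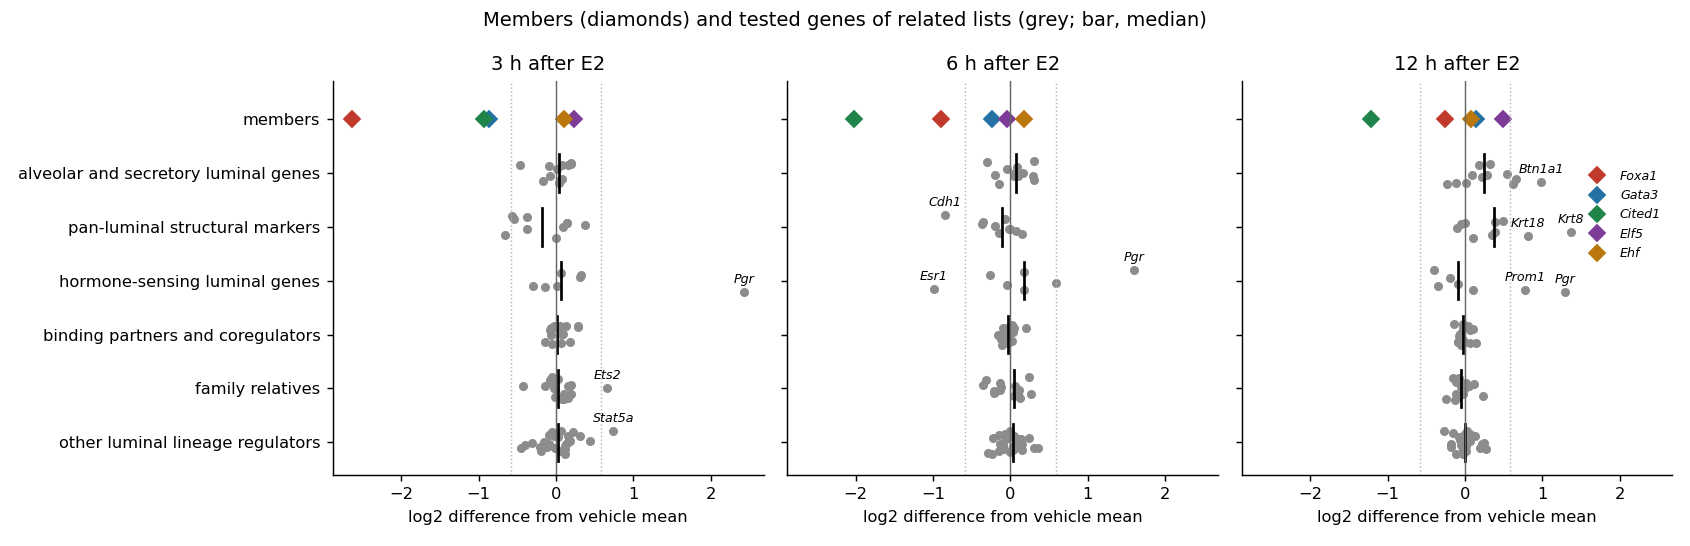
Log2 difference from the vehicle mean (horizontal axis) of the 5 regulators (diamonds) and of the tested genes of the related lists (grey points; bar, median; dotted lines, 1.5-fold) at the times after E2 named above the panels, 1 array each. Foxa1 stands at -2.63 after 3 h and Cited1 at -2.02 after 6 h, while no gene past the level filter in the lists of other regulators, relatives and partners is below -0.45 after 3 h or -0.35 after 6 h.

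To give the other genes a spread, arrays at 1, 3 and 6 h formed an early window and those at 12, 18 and 24 h a late one, and each was compared with the vehicle arrays in limma, with Benjamini-Hochberg adjustment over the 10916 genes. In both windows 0 genes passed an adjusted p of 0.05, or 0%, while 587 genes had an unadjusted p below 0.05 in the early window and 830 in the late one. For Esr1 the early window gave -0.43 log2 units with adjusted p = 0.921 in limma, and the late window gave -0.34 with adjusted p = 0.679. A window mixes times at which these genes differed widely. The members were left out of this reading, since they were chosen on the same arrays.

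The profiles of the 3 genes were compared with the 110 tested genes that spanned at least 1 log2 unit over the 8 arrays. The points of each correlation are the same 8 arrays, which share their 2 controls and the authors' processing, so r describes likeness only. Between the members, r was 0.877 for Foxa1 and Gata3, 0.452 for Foxa1 and Cited1 and 0.145 for Gata3 and Cited1. Elf5 and Ehf had r between -0.195 and 0.096 with these 3.

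Foxa1 was most like Lratd1 (r = 0.969), followed by Slc7a2, Cldn8, Tlcd4 and Gata3. Lratd1 was at -0.52, -1.52 and -0.86 log2 units at 1, 3 and 6 h and back at -0.10 at 12 h. Slc7a2, a transporter of cationic amino acids, was at -1.44 at 3 h by its brightest probe set, and its 3 other sets gave -0.63 to -0.74. Tlcd4 was at -2.22 at 3 h but at 0.05 at 1 h, when Foxa1 was already 1.94-fold lower; its other sets gave -0.46 to -1.61 at 3 h. Cldn8, a claudin of tight junctions, was at -1.18 at 3 h and above the vehicle mean, at 0.60, at 18 h.

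Gata3 was most like Foxa1, then Cldn8 (r = 0.862), Lratd1, Krt18 and Slc7a2. Of these, Lratd1 and Cldn8 were at -0.52 and -0.32 log2 units at 1 h, and Krt18 and Slc7a2 at -0.10 and -0.19, where Gata3 was at -0.71. Krt18 was at -0.57 at 3 h and, like Gata3, had its highest value at 12 h.

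Cited1 was most like Wfdc2 (r = 0.959), a secreted protein with whey acidic protein domains. Wfdc2 was at -0.51, -0.81 and -0.59 log2 units at 3, 6 and 12 h and at 0.06 at 18 h, the same order of times as Cited1 at a smaller depth. Tmprss2, a transmembrane serine protease, came next (r = 0.88). It was as low at 3 h (-1.30) as at 6 h (-1.28) by its brightest probe set, and at -0.71 at 12 h. Its other sets gave -1.29, -1.50 and -0.29 at 3 h and -1.94, -1.38 and -0.28 at 6 h, so that the sets differ on which time was lower. Esr1 had r = 0.836, and Ido1 and Ptger3 had 0.751 each. Ptger3, a receptor of prostaglandin E2, was at -0.95 at 3 h and -0.88 at 6 h but already at -0.07 at 12 h by its brightest set, and its other set gave -0.22 and -0.25 at 3 h and 6 h. Ido1, a tryptophan-degrading enzyme, was at -0.60 at 6 h and at 0.85 at 18 h.

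**Figure D4:**
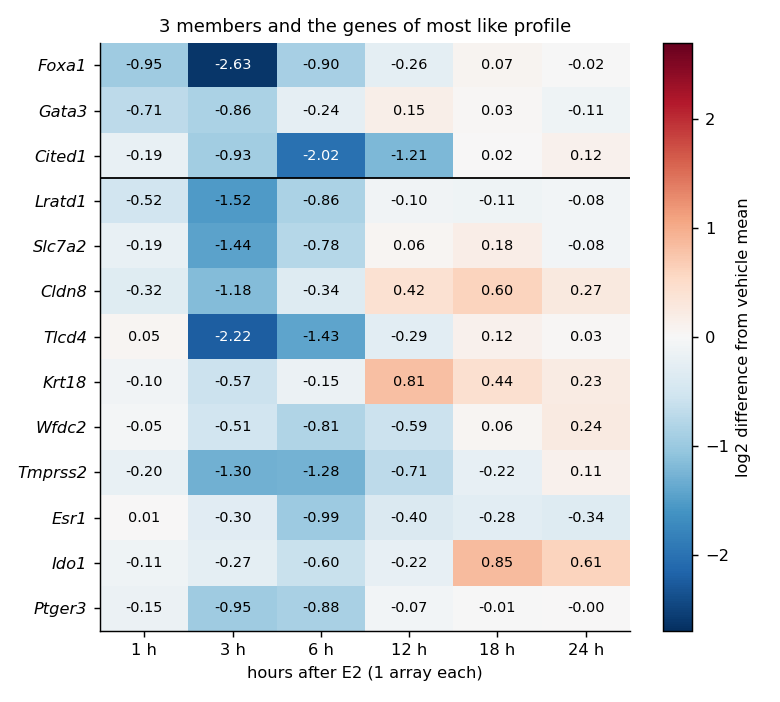
Log2 difference from the vehicle mean (colour) of Foxa1, Gata3 and Cited1 and of the genes of most like profile (vertical axis) from 1 h to 24 h after E2 (horizontal axis; 1 array each). Foxa1, Gata3, Lratd1, Slc7a2, Cldn8, Tlcd4 and Krt18 are lowest at 3 h, and Cited1, Wfdc2, Esr1 and Ido1 are lowest at 6 h. Tmprss2 and Ptger3, though among the genes most like Cited1, are lowest at 3 h, at -1.30 and -0.95, with -1.28 and -0.88 at 6 h.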

How the data were processed

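The table holds 8 Affymetrix arrays and 45101 probe sets. The deposited values are intensities on a linear scale (13.8 to 23591), as the authors made them; how the arrays were normalized is not known. Per the submitters' processing notes, the tools were GCOS 1.0 and RMA, with no role or order given. No array was normalized again; log2 was taken with no pseudocount. Of the probe sets, 34945 had 1 symbol, 932 several and 9160 none, and 34741 of the first matched RefSeq (GRCm38.p6) by Entrez ID, with 0 symbols updated. A gene is its single-symbol probe set with the highest mean; 9010 genes had several. Genes were tested where their mean reached the 40th percentile, 7.72 log2 units.

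A single time is 1 array, so the 1.5-fold rule against both vehicle arrays has no replicate check; percentages of genes counted are of the 10916 tested. Windows were fitted in limma 3.58.1 (R 4.3.3) with a mean-variance trend, two-sided, with Benjamini-Hochberg adjustment. The scripts were tested on simulated data. No label says that arrays of a window are replicates, so these p-values measure the spread between arrays, times included.

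The members and gene lists were chosen with earlier results of these data known. Named genes are the members, listed genes past the 1.5-fold rule (up to 4 a list and time), Esr1 and Pgr, and the 5 genes with the highest Pearson r with Foxa1, Gata3 and Cited1; those for Ehf, the lowest listed regulators, close relatives and Epcam were named after their values were seen. Alternatives were other filters, normalizations, folds, probe set summaries and left-out arrays, and levels relative to the pan-luminal genes.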

Additional observations from a re-analysis of the deposited data

How the results depend on the processing

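The falls of Foxa1 and Gata3 at 3 h and of Cited1 at 6 h kept their direction under all alternatives run. Relative to the pan-luminal genes they were -2.45, -0.69 and -1.84 log2 units, and with 32 added to each value -2.47, -0.76 and -1.80. Of the members' 30 differences, the pan-luminal reference moved 23 by more than the vehicle SD, adding 32 moved 4, quantile normalization moved 1, and median centring and the mean of probe sets moved 0. Foxa1, Gata3 and Cited1 have only 1 probe set each, so the mean of probe sets could not move their differences. Leaving out a vehicle array also moved 0, but this was fixed in advance. The shift it makes in the vehicle mean is always smaller than the vehicle SD.

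The early window gave 1 gene without the level filter, 1 with the mean of probe sets, and 0 to 49 with an array left out, the most without 1 h, then 8 without 6 h and 3 without 3 h; the cause was not tested. The late window gave 0 throughout. In order of time, the genes counted numbered 35, 87, 81, 23, 25 and 24. With a fold of 2 they numbered 6, 21, 23, 6, 2 and 1, and with limma on 7 group means, which has 1 residual degree of freedom, 7, 65, 40, 4, 0 and 0. A filter at the 60th percentile, which tests fewer genes, left 54 at 3 h and 48 at 6 h. Clearing 1 vehicle array in place of both is easier by construction: the counts were 53 to 61 at 1 h, 123 to 138 at 3 h, 101 to 141 at 6 h, 47 to 50 at 12 h, 32 to 108 at 18 h and 28 to 107 at 24 h, with the higher count without vehicle array 1 at every time but 1 h. With 1 array a time, precision is limited by the number of arrays.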
